A study of Mus musculus with 14 samples.

Results

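L3mbtl1 peaks that lie at the ends of more than 1 protein-coding gene are described here, with the gene pairs that share them. A peak was taken as shared when it overlapped the windows of 2000 bp on each side of the start or end coordinate of at least 2 different protein-coding genes (RefSeq, assembly GRCm38.p6). Of the 4677 peaks in the list, 843 (18%) were shared, 3119 (66.7%) lay at the ends of exactly 1 such gene and 715 (15.3%) at none. The shared peaks held 2 genes in 805 cases, 3 genes in 37 and 4 genes in 1. They touched 1393 of 21887 protein-coding genes (6.36%) and joined them into 754 pairs, 146 of which shared more than 1 peak.

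The peaks came from ChIP-seq with 10 µg of an antibody against L3mbtl1 on hippocampus of C57BL6/129 mice aged 7 to 8 postnatal days, with 3 wild-type and 3 L3mbtl1-/- samples. Tissue was crosslinked with 2 mM DSG and 1.5% formaldehyde and cut with micrococcal nuclease to 100 to 500 bp. RNA levels came from a different system, primary hippocampal cultures of wild-type C57BL6 pups of postnatal day 0 to 1, grown in vitro for 14 days. The solvent, 0.1% DMSO, was given to 4 cultures for 15 h (CTRL), and 100 µM picrotoxin to 4 others for the same time (PTX), all described as biological replicates. Peak and RNA therefore differ in age, strain background and cell environment. The ChIP-seq samples gave 1 common list, so no spread between ChIP-seq replicates can be given, and the use made of the knockout samples, the peak caller and what the score stands for were not given in the sources used here.

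L3mbtl1 is a chromatin protein that reads mono- and dimethylated lysines on histones through its malignant brain tumor (MBT) domains and is known for compacting nucleosome arrays. In mammals many genes stand head to head and are read in opposite directions from one short stretch of DNA, a bidirectional promoter, which is often rich in CpG dinucleotides and common among housekeeping, DNA repair and mitochondrial genes. By blocking the chloride channel of GABA-A receptors, picrotoxin removes fast inhibition, and the firing that follows induces immediate early genes.

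The promoters of 4 pairs are shown because they span the kinds of pair met below. Each is the 300 bases from RefSeq (GRCm38.p6, plus strand) around the start that the RefSeq promoter table gives for the gene on the plus strand, which is at base 251. For Slc25a40 that is a downstream start: the outermost start in its gene coordinates, from which distances between starts were taken, is at base 143. Capitals mark matches on either strand to the Sp/Klf motif GGGCGGGG, the CCAAT box, and the TATA motif TATAAA. The start of the neighbour on the minus strand is inside each window, at base 138 for Dbf4, 194 for Psd, 141 for Pgm3 and 73 for H2ac12. RNA of both genes of the first pair rose with picrotoxin, RNA of both genes of the second fell, and the genes of the third went opposite ways, while the fourth is a histone pair chosen after its values were seen.
Slc25a40 with Dbf4, chr5:8422588-8422887: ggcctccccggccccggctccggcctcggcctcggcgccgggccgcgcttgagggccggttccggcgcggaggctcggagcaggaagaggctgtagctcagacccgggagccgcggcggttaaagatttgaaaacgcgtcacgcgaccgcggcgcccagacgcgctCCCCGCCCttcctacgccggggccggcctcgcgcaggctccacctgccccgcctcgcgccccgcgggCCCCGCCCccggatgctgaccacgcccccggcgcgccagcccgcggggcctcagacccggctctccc
Fbxl15 with Psd, chr19:46327934-46328233: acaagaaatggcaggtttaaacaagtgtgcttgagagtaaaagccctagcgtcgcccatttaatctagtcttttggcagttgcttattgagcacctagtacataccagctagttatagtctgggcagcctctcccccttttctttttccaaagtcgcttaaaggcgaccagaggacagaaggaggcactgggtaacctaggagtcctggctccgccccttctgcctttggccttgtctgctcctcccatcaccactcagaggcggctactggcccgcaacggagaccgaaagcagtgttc
Rwdd2a with Pgm3, chr9:86571738-86572037: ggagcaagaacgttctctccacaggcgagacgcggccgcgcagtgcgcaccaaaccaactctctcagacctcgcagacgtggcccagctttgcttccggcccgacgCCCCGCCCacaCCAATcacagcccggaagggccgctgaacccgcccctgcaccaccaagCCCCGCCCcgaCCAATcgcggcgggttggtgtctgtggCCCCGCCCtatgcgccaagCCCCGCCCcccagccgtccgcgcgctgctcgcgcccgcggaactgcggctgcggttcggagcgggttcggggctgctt
H2bc12 with H2ac12, chr13:22035571-22035870: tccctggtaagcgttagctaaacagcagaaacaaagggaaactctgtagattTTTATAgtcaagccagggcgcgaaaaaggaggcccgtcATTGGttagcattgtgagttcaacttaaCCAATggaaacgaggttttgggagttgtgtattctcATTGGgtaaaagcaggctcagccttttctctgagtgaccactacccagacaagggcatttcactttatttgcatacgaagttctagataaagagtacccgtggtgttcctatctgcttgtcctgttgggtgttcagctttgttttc
The Slc25a40 window lay wholly under a peak (300 of 300 bases) and held 47 CpG dinucleotides. The Rwdd2a window had 42 bases under a peak and 37 CpG dinucleotides, and the H2bc12 window 134 bases and 7. No base of the Fbxl15 window, which held 9 CpG dinucleotides, was under a peak: the shared peak of that pair was centred 1398 bp inside Psd.

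Shared peaks resembled the rest of the list in width and score. Their median width was 682 bp (quartiles 353.5 to 1082.5, range 165 to 3336 bp), beside 782 bp for peaks at 1 gene and 683 bp for peaks at no coding gene end. The median score, the authors' own value per peak, was 11.1 (quartiles 9.28 to 13.8, range 8.17 to 50.1), beside 10.7 and 10.2. Of the 100 peaks of highest score, 22 were shared, which is 2.61% of shared peaks beside 2.02% of peaks at 1 gene and 2.10% of peaks at none. Wider shared peaks had somewhat higher scores (Spearman's rank correlation 0.35 over 843 peaks, a description across peaks of 1 list). These differences were not tested, since the list has no replicates.

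The window size set few members by a narrow margin. In 558 shared peaks the second nearest gene had an end within the peak or 500 bp of it. The 68 peaks whose second gene was over 1500 and up to 2000 bp away, just inside the rule, had a median width of 689 bp and a median score of 11.5. The 48 peaks whose second gene was over 2000 and up to 2500 bp away, just outside it, had 619.5 bp and 10.6. Shared peaks were found on every autosome and on X (5 of 26 peaks). Their share was highest on chromosome 7, with 71 of 254 peaks (28.0%), and lowest on chromosome 18, with 10 of 162 (6.17%).

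The shared peak of highest score, which ranked second in the whole list, was chr9:13825758-13828396 (2639 bp, score 50.1), across the overlapping 5′ parts of Cep57, which encodes a centrosomal protein, and Fam76b. Next came chr17:25015523-25017411 (1889 bp, score 41.6), which covered both starts of Cramp1l, which encodes a chromatin-associated protein, and Ift140, an intraflagellar transport subunit. The third, chr7:44997343-44997576, was only 234 bp wide with a score of 40.3. It lay inside Bcl2l12 beside the start of Irf3, the interferon regulatory transcription factor, whose start is 10 bp from that of Bcl2l12. A peak at Gfy, Pth2 and Kash5 (chr7:45180706-45183163, score 33.3) followed, where Gfy and Pth2 were close to silent in culture, with at most 0.138 and 0.118 CPM in any library. The widest shared peak was at Bora, a mitotic kinase cofactor, and Mzt1, a gamma-tubulin complex subunit (chr14:99044472-99047807, 3336 bp, score 10.3). The narrowest were 165 bp, the library fragment length in the labels, and lay at Cops5 and Cspp1, at Adnp and Dpm1, and at Get3 and Trir. The single peak with 4 genes was in a histone cluster (chr13:23573403-23575616, 2214 bp) at H2ac7, H2bc7, H2bc8 and H3c4.

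Most pairs at shared peaks were joined by their starts, not their ends, although the rule admits either. Strand was known for both genes in 574 pairs. In 408 of these (71.1%) the peak lay at both starts and the genes were on opposite strands, as 269 divergent pairs and 139 pairs whose 5′ parts overlap. A further 31 pairs had both starts on the same strand, 116 a start and an end on the same strand, 15 a start and an end on opposite strands, and 4 only ends. With windows of 5000 bp the first share was 52.5% and with 1000 bp 79.7%. Single-gene peaks had the same leaning, since 2430 of 2456 with known strand (98.9%) lay at the start and 26 at the end only.

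The share with a peak also varied with the arrangement among all pairs of protein-coding genes whose end windows overlap each other. Of 6704 such close pairs, 752 (11.2%) shared a peak. The share was 34.4% for divergent pairs (269 of 783), 33.7% for pairs with overlapping 5′ parts (140 of 415) and 18.8% for starts on the same strand (40 of 213), where close pairs are sorted by the ends that approach each other and not by the ends at the peak. It was 7.19% where a start meets an end on the same strand (105 of 1461), 4.29% on opposite strands (14 of 326) and 0.323% where only ends meet (4 of 1239). Because nearer ends leave a wider common window, the comparison was repeated for pairs with ends at most 300 bp apart, a limit set after the first shares were seen. Of these, 202 of 486 divergent pairs (41.6%) and 71 of 191 pairs with overlapping 5′ parts (37.2%) shared a peak, beside 23 of 177 start-to-end pairs on the same strand (13%) and 0 of 295 end-to-end pairs. Expression in culture went with the share, since 239 of 606 divergent pairs with both genes tested (39.4%) shared a peak, 24 of 123 with 1 gene tested (19.5%) and 6 of 54 with neither (11.1%). No test was made of these shares.

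**Figure D1:**
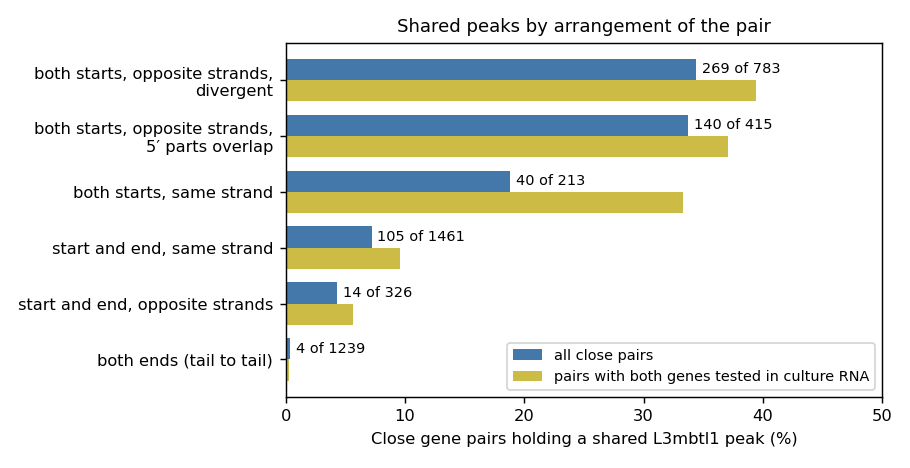
Percent of close gene pairs that hold a shared L3mbtl1 peak (x axis), by arrangement of the pair (y axis), for all close pairs (blue, with counts) and for pairs with both genes tested in culture RNA (yellow). The bars for pairs joined by starts on opposite strands reach 34.4% and 33.7%, and the bar for pairs joined by ends alone 0.323%.

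At divergent pairs few peaks were centred in the gap between the starts, which was short beside the peaks (median width 650 bp). How many centres so short a gap would hold by position alone was not tested. The starts of the 269 pairs were 1 to 3246 bp apart (median 130, quartiles 59 to 296), within 1000 bp in 243 pairs (90.3%). Of 334 combinations of such a pair and a peak, 191 (57.2%) covered neither start, 78 covered 1 and 65 (19.5%) covered both. The centre of the peak lay between the starts in 50 (15.0%), on the side of the minus-strand gene in 137 and on that of the plus-strand gene in 147, with a median distance of 305 bp to the nearer start. Peaks that covered both starts had a median width of 1383 bp and peaks that covered neither 484 bp. Single-gene start peaks covered the start in 34.9%, beside at least 1 start covered in 42.8% of the combinations above. Their centre lay on the gene side in 67.7%, and the median centre was 293 bp inside the gene. These shares are not like measures, since a divergent pair has a start and a gene on either side.

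**Figure D2:**
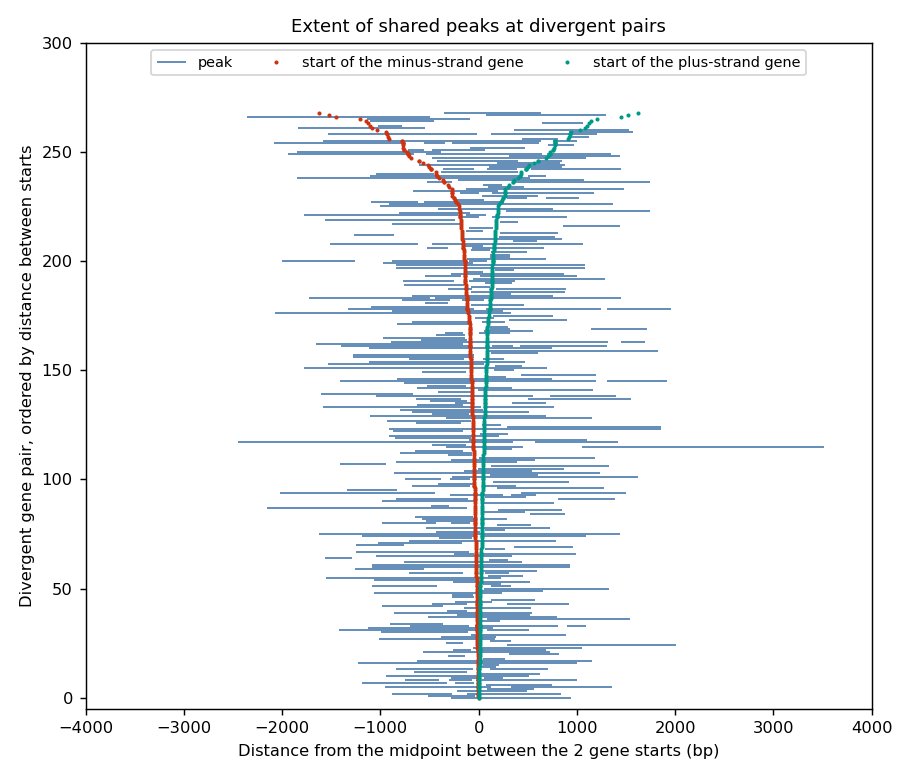
Extent of each shared peak (blue lines) at the 269 divergent pairs, one pair per step of the y axis ordered by the distance between starts, against the distance from the midpoint between both starts in bp (x axis). Red and green points are the starts of the minus- and plus-strand genes. Of the 334 combinations of a pair and a peak, 191 cover neither start: 162 of these are centred on the side of one of the genes and 29 between the starts.

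In 57 of the 269 divergent pairs there was more than 1 peak, and in 36 of these peaks were centred on both gene sides. The other 212 had a single peak, centred on one gene's side in 181 and between the starts in 31. Side was taken from the peak centre alone, and some such peaks covered both starts, as at Dbf4 and Slc25a40. Among the 163 one-sided pairs with both genes tested, 60 genes on the side of the peak centre were called (33 up, 27 down). Their neighbours had 60 calls as well (30 up, 30 down). That is 36.8% of each, beside 39.2% of all tested genes. Where exactly 1 gene was called, the peak was centred on its side in 39 of 78 pairs, a split that follows from the equal counts. Where only 1 gene of a pair was expressed enough to be tested, the peak was nearer to its start in 16 of 32 combinations.

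Promoters of member genes were richer in CpG than promoters at large. The table of RefSeq promoters (250 bases before to 50 after the start) held 1179 of the 1393 members and 17492 protein-coding genes in all. Median G+C content was 61.7% for members, 65% for genes at unshared peaks and 56.3% for all genes, and the observed over expected CpG ratio was 0.85, 0.87 and 0.58. An exact match on either strand to the ETS motif CCGGAAGT was found in 10.9% of member promoters and 12.5% of those in divergent pairs, beside 6.71% at unshared peaks, 8.92% in divergent close pairs with no peak and 5.28% of all. The NRF1 motif was in 2.80%, 3.59%, 2.49%, 2.64% and 1.33% of the same sets, and the YY1 motif in 2.12%, 3.59%, 1.73%, 2.86% and 0.972%. The Sp/Klf motif GGGCGGGG was in 30.0% of member promoters, below the 40.7% at unshared peaks and above the 23.8% of all. The activity-linked AP-1 motif TGANTCA was in 3.31% of member promoters, beside 3.15% at unshared peaks and 7.03% of all. TATAAA was in 7.38%, 5.64% and 13.3% of these sets. In these sets, in that order, the E2F motifs TTTCCCGC and TTTGGCGC were in 4.58%, 3.97% and 2.10%. The CRE motif TGACGTCA was in 3.82%, 2.75% and 2.33%, CCAAT in 45.0%, 39.6% and 39.2%, and the E-box CACGTG in 9.92%, 10.3% and 7.91%. The ZBTB33 motif was in 0.763%, 0.813% and 0.726%, beside 3.19% in divergent close pairs with no peak. Both promoters of a divergent pair can hold the same bases, so a match may count in both. A match is a description of letters and not of binding.

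Histone genes, which package DNA and are mostly transcribed in S phase, were the gene group with the largest share at shared peaks among the 13 lists counted. Of 75 listed histone genes 45 (60.0%) were members, and 53 were at any peak. The list was drawn up by symbol and missed some histone genes at shared peaks, such as H2bc9, H2bc18, H2ac24 and H1f0. Counts of histone genes and pairs given here are therefore incomplete. Of 47 close pairs of 2 histone genes, 33 (70.2%) shared a peak, 15 of them divergent. The cluster chr13:21715711-23934913 held 50 of the listed histone genes, 37 of them members. It had 49 peaks, 31 of them shared, out of 264 peaks on the chromosome. On chromosome 3, 7 of the 10 listed histone genes were members. One of these, H2az1 (chr3:137864487-137866922), lies far from the others. The histone peaks were of usual width and score (41 peaks, median 651 bp and 11.8). Their promoters differ from those of other members: of 40 with an entry, 90% held CCAAT and 65% TATAAA, at a median G+C content of 44.7%, as in the H2bc12 window shown above. Without pairs that hold a listed histone gene the share of strand-known pairs with both starts on opposite strands was as high, at 72.2% (390 of 540).

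Other lists were represented unevenly beside the 6.36% of all protein-coding genes. That share includes genes not tested in culture RNA, while 1249 of the 13867 tested coding genes were members. Several lists were tested almost in full, such as DNA repair (63 of 63), synthetases (35 of 35), delayed activity-response (33 of 33) and respiratory chain genes (98 of 106). The part of expression in the shares below was not tested. DNA repair and replication genes had 15 of 63 at shared peaks (23.8%), aminoacyl-tRNA synthetases 8 of 35 (22.9%), respiratory chain subunits and assembly factors 19 of 106 (17.9%), mitochondrial ribosomal proteins 12 of 78 (15.4%), and splicing factors 8 of 61 (13.1%). Chromatin modifiers and readers had 8 of 77 and proteasome genes 5 of 51. Zinc finger genes named Zfp had 21 of 397 (5.29%) and cytosolic ribosomal proteins 4 of 84 (4.76%). Synaptic receptors, channels and scaffolds had 2 of 207 (0.966%) and delayed activity-response genes 0 of 33, although 39 and 11 of these lists were at some peak. Immediate early genes had 2 of 25 (8%), with 13 at some peak. None of the 8 excitatory or 9 inhibitory neuron markers was a member, and L3mbtl1, Ctnnb1 and Gabra2 were not members either.

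**Figure D3:**
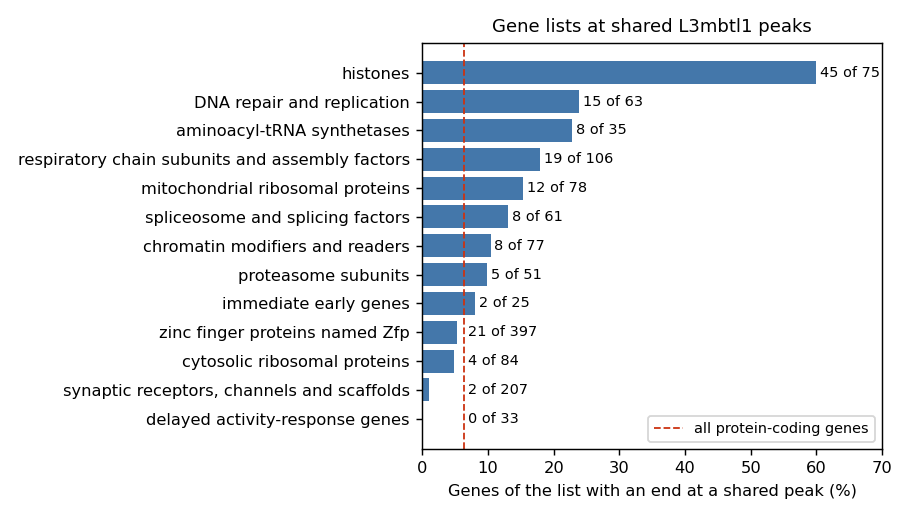
Percent of the genes of each list that have an end at a shared L3mbtl1 peak (x axis), with counts beside the bars, and the share of all protein-coding genes (dashed line, 6.36%). Histones reach 60.0%, and the synaptic and delayed activity-response lists stay below 1%.

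RNA counts per library ran from 14524916 to 19498189, and the first principal component (60.4% of variance) parted CTRL from PTX. The second (21.0%) set both libraries numbered 1 apart, in which the summed meningeal fibroblast markers were at 709.6 and 564.7 CPM (counts scaled to library size), beside 114.6 to 225.1 CPM in the other 6 libraries. Summed astrocyte markers were at 6198 to 8378 CPM in CTRL and 4519 to 6246 CPM in PTX (4 of 8 fell), summed inhibitory neuron markers at 576.3 to 739.5 and 1038 to 1179 CPM, summed excitatory markers at 483.6 to 626.1 and 668.9 to 836.2 CPM, although 6 of 8 fell and 1 rose, and summed microglia markers at 15.2 to 69.1 and 41.1 to 135.4 CPM. No marker was at 0 in all libraries. In bulk cultures fewer cells of a type and less RNA per cell cannot be told apart, and the part of cell makeup in the changes below was not tested.

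Member genes were mostly expressed in culture. Their share of called genes was close to that of all tested genes, and changes of at least 2-fold made up a smaller share. Of 1336 members with counts, 1249 (93.5%) passed the filter on low counts, beside 98.7% of genes at unshared peaks, 59.2% of coding genes with no peak and 66.1% of all coding genes. Their median level in CTRL was 27.0 CPM (quartiles 10.0 to 65.9). With PTX, 218 members rose and 236 fell (edgeR, adjusted p under 0.05), together 36.3% of those tested. The background over all 15959 tested genes was 39.2% (19% higher and 20.1% lower), and genes at unshared peaks stood at 48.0%. Tested coding genes stood at 41.3%, and genes of close pairs with no peak at 36.9%. Changes of at least 2-fold were made by 66 members (5.28%, 39 rose and 27 fell), beside 11.9% of all tested genes and 10.1% of genes at unshared peaks. The share was 11.5% of tested coding genes and 8.58% of genes of close pairs with no peak. The median size of the log2 fold change was 0.25 in members and 0.33 in all tested genes, and the medians with sign were -0.05 and -0.03. In genes of close pairs with no peak the median size was 0.29. Members pass the filter more often than other genes, and with no filter the order turned, with 29.4% of members called beside 20.9% of all. The number of members that fell was 359 with the replicate number as a block (287 rose; 51.7% of members and 55.3% of all genes called) and 141 without PTX library 3 (218 rose). Without both libraries numbered 1, 245 rose and 183 fell.

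The genes of a pair changed alike as often as they went opposite ways. Of 602 pairs with both genes tested, 263 had no called gene (43.7%), 255 had 1 (115 up, 140 down) and 84 had 2 (14.0%). In close pairs with no peak at either gene these shares were 42.7% with no called gene and 13.4% with 2. Of all tested genes 39.2% were called. Of the 84 pairs at shared peaks with 2 called genes, 21 rose together, 21 fell together and 42 went opposite ways. Over the 602 pairs the log2 fold changes of the neighbours had r = 0.07 and the same sign in 309 (51.3%), a description in which pairs share libraries and some genes. Divergent pairs had 13 rising together, 7 falling together and 14 going opposite ways among 239 tested (r = 0.09). Pairs whose gene bodies do not overlap had 32 changed alike and 34 opposite. Close pairs with no peak at either gene had 215 alike and 135 opposite among 2610 tested (r = 0.12), and their divergent pairs 15 and 18 among 326. With the replicate block 83 pairs at shared peaks changed alike and 75 opposite. The 42 opposite pairs became 27 without CTRL library 2, 22 without CTRL library 3 and 21 without PTX library 3, and the 42 alike became 24 without CTRL library 3.

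**Figure D4:**
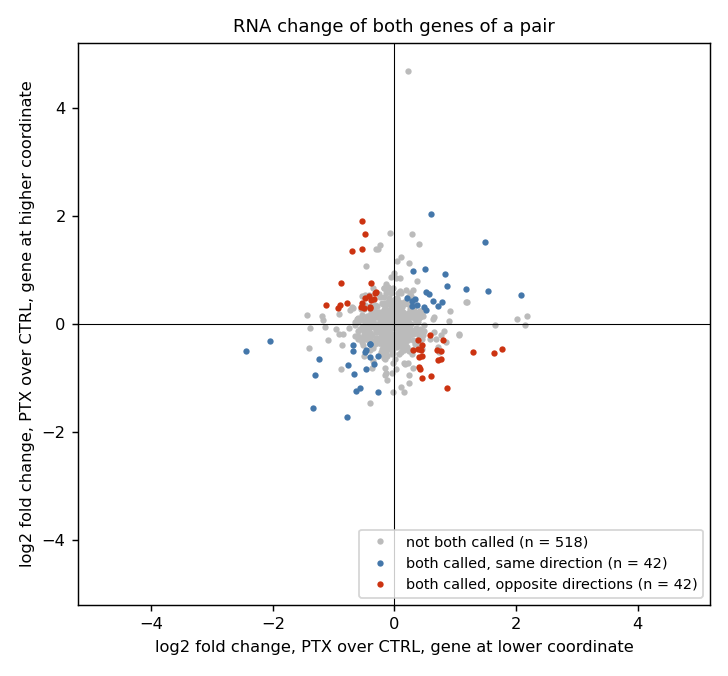
The log2 fold change, PTX over CTRL, of the gene at the higher coordinate (y axis) against that of its neighbour at the lower coordinate (x axis) for the 602 pairs at shared peaks with both genes tested. The 42 pairs that changed alike (blue) and the 42 that went opposite ways (red) are spread over both sides of each axis, and grey points are pairs without 2 calls.

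Among pairs that rose together, the pair with the largest smaller change was Dbf4 and Slc25a40, whose outermost starts are 5 bp apart under 1 peak (chr5:8422508-8423221, score 10.0). Dbf4, the regulatory subunit of the kinase that fires replication origins, was at 14.6, 11.5, 14.2 and 13 CPM in the CTRL libraries and 38.2, 27, 48.9 and 36.4 CPM in the PTX libraries (libraries 1 to 4 in order, as below). Slc25a40, a mitochondrial carrier, was at 21.2, 19.8, 19.2 and 17.8 CPM in the CTRL libraries and 67.1, 42.6, 59.5 and 52.3 CPM in the PTX libraries. In both genes every PTX library lay above every CTRL library, since groups that do not overlap were a condition for naming a pair. The changes were close in size, at 2.82-fold for Dbf4 (log2 fold change 1.49, SE 0.17, edgeR adjusted p = 9.6e-05) and 2.84-fold for Slc25a40 (log2 fold change 1.50, SE 0.14, edgeR adjusted p = 2.24e-05).

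The pair Lnx2 and Polr1d shared 2 peaks, the wider of 2606 bp over both starts (chr5:147075231-147077836, score 17.1). Lnx2, a ubiquitin ligase, was at 6.96, 6.62, 6.34 and 7.19 CPM in the CTRL libraries and 12.3, 12.8, 16.9 and 19.3 CPM in the PTX libraries, and rose 2.26-fold (log2 fold change 1.18, SE 0.16, edgeR adjusted p = 0.000328). Polr1d, a subunit shared by RNA polymerases I and III, was at 51.3, 51.5, 51.9 and 44.6 CPM in the CTRL libraries and 75.3, 85.3, 76.8 and 73.7 CPM in the PTX libraries, and rose 1.56-fold (log2 fold change 0.64, SE 0.08, edgeR adjusted p = 0.000211). The groups did not overlap in either gene, by the same condition, and CTRL library 4 was the lowest for Polr1d. Efcab5 rose 2.91-fold and its neighbour Ssh2, a cofilin phosphatase, 1.52-fold, over gene bodies that overlap, so reads in the overlap cannot be told apart. Jpt2 and Cramp1l rose 1.82-fold and 1.63-fold from a start-to-end arrangement, and Aasdhppt and Kbtbd3 1.48-fold and 1.46-fold. Tmem251, needed for lysosomal enzyme sorting, rose 1.90-fold, while the rise of its neighbour Moap1 (1.78-fold, edgeR adjusted p = 0.024) rested on 0.588 to 1.01 CPM in CTRL and lost its call in 4 of 13 alternative fits (adjusted p 0.0193 to 0.0823).

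The GABA-A receptor subunit Gabra5 was 1 of the 2 members from the list of synaptic genes, both of which fell. Gabra5 was at 105, 78.8, 76.2 and 63.1 CPM in the CTRL libraries and 42.8, 36.7, 23.9 and 26.8 CPM in the PTX libraries, a 2.48-fold fall (log2 fold change -1.31, SE 0.21, edgeR adjusted p = 0.000694). All PTX libraries lay below all CTRL libraries, and CTRL library 1 was the highest. Of the 167 tested genes of that list 81 fell and 29 rose, so the direction was shared by many synaptic genes that are no members.

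Among pairs that fell together, Cep57l1 and Sesn1 had starts 706 bp apart and a peak at each. Sesn1, a sestrin that restrains growth signalling, was at 86.6, 111, 115 and 106 CPM in the CTRL libraries and 33.1, 55.2, 46.6 and 48.4 CPM in the PTX libraries, a 2.28-fold fall (log2 fold change -1.19, SE 0.15, edgeR adjusted p = 0.000204), and Cep57l1 fell 1.49-fold. Rgs11, a regulator of G protein signalling, fell 3.29-fold, and Arhgdig 1.72-fold. The pair Mcoln1, a lysosomal cation channel, and Pnpla6, a phospholipase, fell 1.70-fold and 1.69-fold with a peak at the end of the first and the start of the second (chr8:3515386-3516555). Smpd4 fell 1.55-fold and Ccdc74a 2.38-fold. At the promoter shown above, Psd, an activator of the small GTPase Arf, was at 174, 146, 157 and 135 CPM in the CTRL libraries and 119.5, 97.4, 90.6 and 78 CPM in the PTX libraries and fell 1.59-fold, and Fbxl15 fell 1.90-fold.

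Opposite changes were seen also across a gap of 110 bp. Pgm3, an enzyme of UDP-N-acetylglucosamine synthesis, was at 36.9, 34, 33 and 30.7 CPM in the CTRL libraries and 64.1, 59, 65.6 and 57.3 CPM in the PTX libraries and rose 1.83-fold (log2 fold change 0.87, SE 0.08, edgeR adjusted p = 3.48e-05). Rwdd2a, which starts 110 bp away in the promoter shown above, was at 26.7, 22.4, 23.3 and 19.7 CPM in the CTRL libraries and 10.7, 9.67, 11.2 and 8.8 CPM in the PTX libraries and fell 2.28-fold (log2 fold change -1.19, SE 0.13, edgeR adjusted p = 5.99e-05). The groups did not overlap in either gene, a condition for naming the pair. The pair shared 1 peak (chr9:86571058-86571779, score 16.1), centred 459.5 bp from the start of Pgm3 on its gene side.

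Maneal and Epha10 had starts 592 bp apart with a peak centred between them that covered the start of Epha10 (chr4:124881334-124881701, score 12.0). Maneal, an endomannosidase-like gene, fell 1.63-fold (log2 fold change -0.70, SE 0.13, edgeR adjusted p = 0.00178), while Epha10, an ephrin receptor, was at 9.08, 6.96, 7.59 and 7.45 CPM in the CTRL libraries and 27.5, 19.8, 17.1 and 15 CPM in the PTX libraries and rose 2.56-fold (log2 fold change 1.35, SE 0.19, edgeR adjusted p = 0.000346). Its highest value, 27.5 CPM, was in PTX library 1. The remaining pairs named for opposite changes were Yif1a, an ER to Golgi transport gene (1.68-fold up), with Tmem151a (1.84-fold down), Mtrf1l, a mitochondrial release factor (1.71-fold up), with Rgs17 (1.56-fold down), Mob3a (1.52-fold up) with Izumo4 (1.95-fold down), and Rnf43, a ubiquitin ligase that removes Wnt receptors (3.10-fold up), with Supt4a, a transcription elongation factor (1.45-fold down). Groups did not overlap in any of these 8 genes, a condition of their choice.

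**Figure D5:**
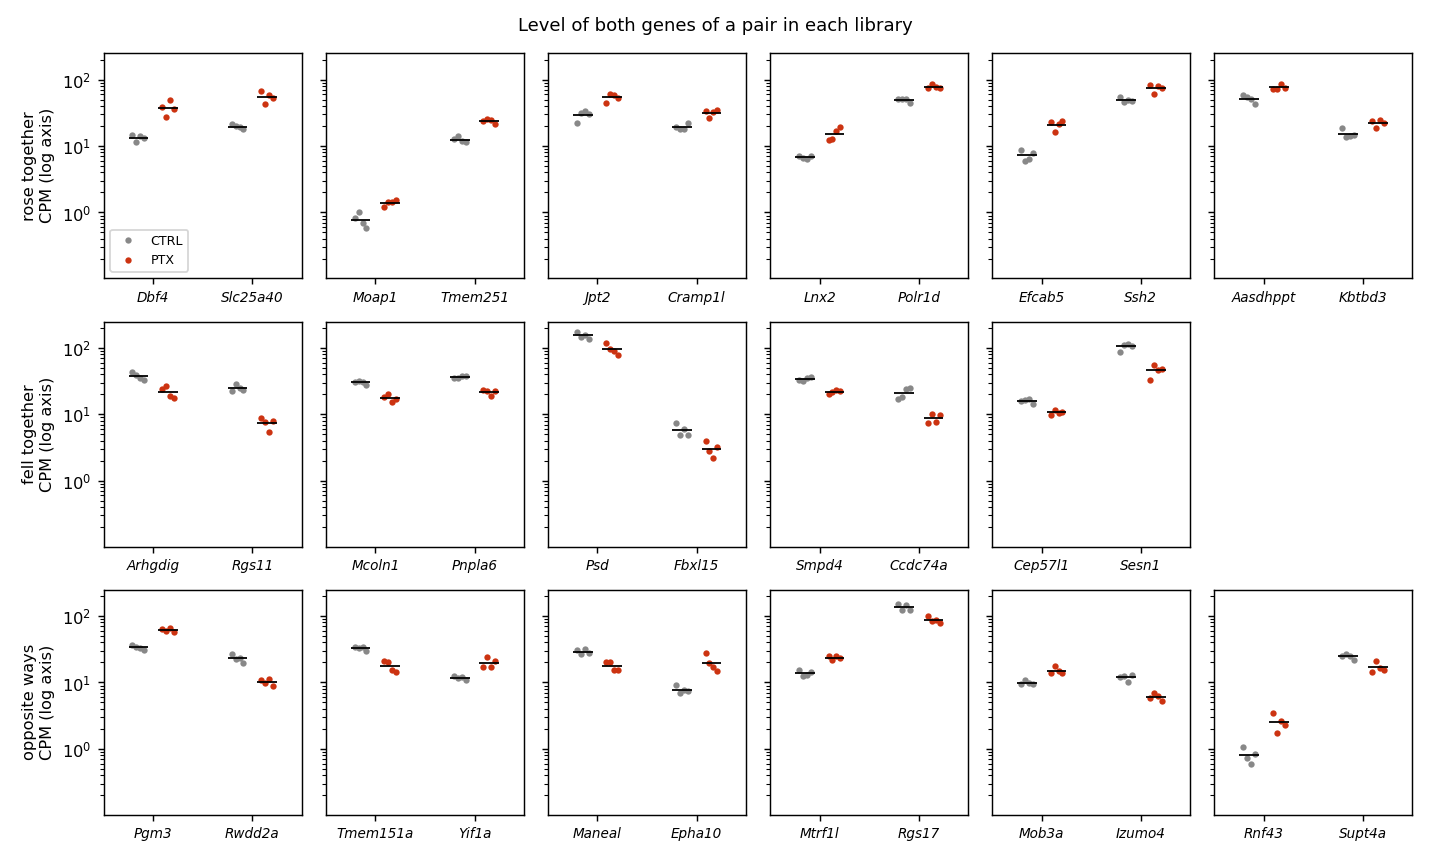
Level of both genes of 17 named pairs in CPM (y axis, log scale) in each CTRL (grey) and PTX (red) library, with the group mean as a black bar. Rows hold pairs that rose together, fell together and went opposite ways, and groups do not overlap in any panel because that was a condition for naming a pair.

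The members with the largest changes are given with their neighbours. Bpifc, of the BPI-fold family, was at 0.118, 0.224, 0 and 0.131 CPM in the CTRL libraries and 6.77, 1.3, 2.34 and 2.06 CPM in the PTX libraries, from 8 counts in all CTRL libraries to 196 in all PTX libraries, with the highest value in PTX library 1 (log2 fold change 4.67, SE 0.74, edgeR adjusted p = 0.000734). Its neighbour Rtcb, a tRNA ligase, was at 148.8 and 173.0 CPM on average (edgeR adjusted p = 0.0555, and under 0.05 in 8 of 13 alternative fits). Nr4a2, an immediate early nuclear receptor, was at 6.31, 10.3, 4.19 and 4.97 CPM in the CTRL libraries and 48.6, 76.4, 88.3 and 73.3 CPM in the PTX libraries, an 11.1-fold rise (log2 fold change 3.47, SE 0.29, edgeR adjusted p = 1.36e-05). Its peak (chr2:57123358-57123867, score 8.77) is shared with the gene model LOC105244150, which has no match in the count tables. Junb, an immediate early AP-1 subunit, was at 10.7, 21.7, 13.1 and 9.15 CPM in the CTRL libraries and 31.7, 39.5, 45.5 and 33.7 CPM in the PTX libraries, a 2.74-fold rise (log2 fold change 1.46, SE 0.25, edgeR adjusted p = 0.00114), and its neighbour Prdx2, a peroxiredoxin, was at 379.5 and 321.5 CPM on average (edgeR adjusted p = 0.0535, and 0.0104 with the replicate block). In the whole immediate early list 23 rose and 1 fell of 25 tested.

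Other large rises were those of Crh, the corticotropin-releasing hormone (4.45-fold), Dennd2c (4.43-fold) and Ccdc116 (4.04-fold). The tested neighbours of Dennd2c and Ccdc116, Bcas2 and Ydjc, had log2 fold changes of -0.02 and 0.09.

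Among falls, Slc26a8, an anion transporter, was at 1.59, 2.02, 1.75 and 2.29 CPM in the CTRL libraries and 0.574, 0.177, 0.138 and 0.485 CPM in the PTX libraries, a 5.43-fold fall (log2 fold change -2.44, SE 0.39, edgeR adjusted p = 0.000832), and its neighbour Mapk14, a stress-activated kinase whose start is 69 bp away, fell by 0.51 on the log2 scale (edgeR adjusted p = 0.00064). Fn3k, a deglycating kinase, was at 7.02, 6.06, 6.94 and 7.84 CPM in the CTRL libraries and 1.6, 1.95, 1.31 and 1.82 CPM in the PTX libraries, a 4.15-fold fall (log2 fold change -2.05, SE 0.18, edgeR adjusted p = 2.16e-05). Its neighbour Tbcd, a tubulin folding cofactor, had a log2 fold change of -0.33 (edgeR adjusted p = 0.0489) that lost its call in 9 of 13 alternative fits (adjusted p 0.000902 to 0.209). Rasip1, Ccpg1 and Usp43 fell 2.90-fold, 2.76-fold and 2.72-fold. The call held in every alternative fit for each of the largest rises and falls named here.

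Of the 20 genes tested at the 10 shared peaks of highest score, 4 were called up and 4 down, which is 40% beside 39.2% of all tested genes. Cep57 was at 26.9 ± 2.62 CPM with DMSO and 27.5 ± 0.783 CPM with picrotoxin (SD, n = 4 each; log2 fold change 0.03, SE 0.09, edgeR adjusted p = 0.817). Fam76b, its neighbour, was at 45.1 ± 1.92 CPM with DMSO and 39.2 ± 1.54 CPM with picrotoxin and passed narrowly (log2 fold change -0.20, SE 0.07, edgeR adjusted p = 0.0445), but lost its call in 12 of 13 alternative fits (adjusted p 0.0252 to 0.257). At the second peak Cramp1l rose 1.63-fold and Ift140 fell 1.39-fold (edgeR adjusted p = 0.000929 and 0.0047). At the third neither Bcl2l12 nor Irf3 passed (edgeR adjusted p = 0.591 and 0.396). Cep170, a centrosomal protein, rose from 231 to 291 CPM over the CTRL libraries to 362 to 516 CPM (log2 fold change 0.80, SE 0.12, edgeR adjusted p = 0.000484), while Sdccag8, also centrosomal, had a log2 fold change of -0.31 whose call was lost in 6 of 13 fits (adjusted p 0.00231 to 0.134). Kash5, a meiotic gene at 0.836 CPM in CTRL, rose 3.15-fold, and Nudt2, a nucleotide hydrolase, fell 1.48-fold. Cops7b had a log2 fold change of 0.33 and lost its call in 6 of 13 fits (adjusted p 0.00724 to 0.0905). Pde6d, Knl1, Kif24, Aifm1 and the histone genes H2ac20, H2ac21 and H2bc21 did not pass. Rab33a (log2 fold change 0.66, edgeR adjusted p = 0.0934) did not pass either, but did with the replicate block (adjusted p = 0.00178).

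Counts within the lists are given beside those of each whole list, and 39.2% of all tested genes were called. Of 15 DNA repair members, all tested, 1 rose and 4 fell, among them Atm, beside 5 up and 12 down of the 63 tested genes of the list. Atm, the kinase that signals DNA breaks, was at 62.8, 59.6, 63.7 and 66.2 CPM in the CTRL libraries and 40.1, 39.6, 43.3 and 43.8 CPM in the PTX libraries, a 1.51-fold fall (log2 fold change -0.60, SE 0.07, edgeR adjusted p = 0.000148), and its divergent neighbour Npat, an activator of histone genes whose start is 61 bp away, had a log2 fold change of 0.09 (edgeR adjusted p = 0.428). The median of the 15 members was -0.32 on the log2 scale. Of 8 tRNA synthetase members 3 rose, among them Hars, the cytosolic histidine enzyme (107 ± 10.7 CPM with DMSO and 221 ± 18.2 CPM with picrotoxin, SD, n = 4; log2 fold change 1.06, SE 0.10, edgeR adjusted p = 2.58e-05), and 1 fell, the mitochondrial Vars2 (1.52-fold), beside 14 up and 4 down of the 35 in the list. Hars2, the mitochondrial histidine enzyme that shares the peak with Hars, had a log2 fold change of -0.19 (edgeR adjusted p = 0.169).

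Of 18 tested respiratory chain members Cox15, a heme A synthase, fell 1.63-fold and Uqcrh had a log2 fold change of 0.22 that lost its call in 4 of 13 fits (adjusted p 0.000883 to 0.123), beside 5 up and 4 down of 98 tested in the list. Mitochondrial ribosomal members had 1 called up and 2 down of 12, beside 10 and 3 of 75, and calls were lost in 2 of 13 fits for Mrps7 (adjusted p 0.00274 to 0.0622) and in 8 for Mrps27 (0.00893 to 0.152). Splicing factors had 2 up of 8, among them Srsf7 (1.27-fold), beside 8 up and 10 down of 60. Rpl4 rose among 4 cytosolic ribosomal members and Psmg2 fell among 5 proteasome members, the latter with a call lost in 7 fits (adjusted p 0.00323 to 0.113). The whole cytosolic ribosomal list had 10 up and 1 down of 80, and the proteasome list 11 up and 1 down of 48. Of 21 Zfp members 3 rose and 3 fell, with Zfp706 the most significant (1.96-fold fall), beside 67 up and 67 down of 362. None of the 8 chromatin members passed in edgeR, Bmi1 coming nearest (log2 fold change -0.25, adjusted p = 0.0569, and 0.0106 with the replicate block), beside 17 up and 19 down of 77. The astrocyte marker Aldoc and the microglia marker Cd68, each the sole member from its list, had log2 fold changes of -1.39 and 1.67 (edgeR adjusted p = 8.26e-05 and 0.00297). The astrocyte list had 0 up and 4 down of 8 tested. Cd68 was the only called gene among 6 tested microglia markers.

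Of 34 tested histone members of the list 2 rose and 2 fell (11.8% called, beside 39.2% of all tested genes). Of the 21 tested histone genes of the list that were not members 1 rose and 11 fell. Several tested members were near 1 CPM in CTRL (H2bc22 0.860, H2ac11 1.05, H3c13 1.06), as were H3c15 and H3c11 among non-members (0.665 and 1.15). Members reached 253 CPM (H4c4) and non-members 470 CPM (H3f3b). The part of level in the difference was not tested. Among members, H2bc11 and H2bc4 rose and H4c4 and H2ac6 fell (the second of each named after its values were seen), 26 had a log2 fold change below 0, and the median was -0.26 (range -0.77 to 1.38) beside -0.03 for all tested genes. H4c4 was at 196, 276, 283 and 258 CPM in the CTRL libraries and 111, 167, 167 and 172 CPM in the PTX libraries, a 1.64-fold fall (log2 fold change -0.71, SE 0.16, edgeR adjusted p = 0.00546), with PTX library 1 the lowest. H2bc11 was at 1.59, 2.19, 2.55 and 1.7 CPM in the CTRL libraries and 4.98, 5.6, 6.41 and 4 CPM in the PTX libraries, a 2.60-fold rise (log2 fold change 1.38, SE 0.22, edgeR adjusted p = 0.000884). Its divergent neighbours H2ac11 and H4c9 had log2 fold changes of -0.27 and -0.31 and did not pass (edgeR adjusted p = 0.563 and 0.353). For the histone pair shown above, H2bc12 and H2ac12 had log2 fold changes of -0.23 and -0.60 (edgeR adjusted p = 0.50 and 0.111). Histone genes are near-identical copies, so the assignment of reads among them is uncertain.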

How the data were processed

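Total RNA was depleted of ribosomal RNA before library preparation, per the labels' protocols. The authors deposited 1 table of raw read counts per gene for each RNA library and 1 peak list with a score per peak for all ChIP-seq samples. TopHat2 2.0.9, Bowtie2 2.2.4, HTSeq 0.6.1 and CASAVA 1.8, with build mm10, are named in the submitters' processing notes, without roles; neither the strand setting nor the release of the annotation was given in the sources used here. Summary lines (19.9% to 26.8% of alignments outside genes, 0.580% to 0.675% in more than 1 gene) were left out.

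PTX and CTRL were compared with edgeR 4.0.16 in R 4.3.3 (quasi-likelihood F test, TMM, filterByExpr, no covariates, Benjamini-Hochberg over all tested genes), tested first on simulated data. CPM used TMM-scaled library sizes, and gene lengths were not available here, so levels were not compared between genes. RefSeq coordinates (21887 coding genes) were matched to the count tables by symbol (20599) or synonym (389), and 899 stayed unmatched. Strand came from the RefSeq promoter table (1179 of 1393 members). Exons and introns were not annotated here. Same-numbered CTRL and PTX libraries deviated together for numbers 1, 2 and 4 (r = 0.77, 0.57 and 0.61 over 15959 genes). For number 3 r was 0.15, below the 0.21 of CTRL library 3 with PTX library 2 and with PTX library 4. Pairing by number was therefore not clear for every number. The fit without the block stayed the main one, with the block as an alternative. Named genes were, by rule, those of the 10 highest-scoring, 3 widest, 3 narrowest and 3 most gene-rich shared peaks, the 6 pairs per direction with the largest smaller change, the 6 largest rises and falls (mean CPM of at least 1, groups not overlapping), and up to 2 members per list with the smallest p. Values of some named genes are not reported here. The members and lists were chosen with earlier results of these data known. Alternatives were DESeq2 1.42.0, RLE scaling, no filter, the block, leaving out libraries, other windows, overlaps and scores.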

Additional observations from a re-analysis of the deposited data

Results flagged for a closer look

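Among 200 groups of 4 libraries, 1 group per named gene and treatment, 7 had a library whose gap to the nearest other exceeded Dixon's 95% critical value for 4 samples. Chance flags about 1 in 20 groups. In PTX, Aasdhppt was at 87.1 CPM in library 3 (others 71.4 to 73.9), Aifm1 at 30.4 CPM in library 4 (23.8 to 24.1), H4c4 at 111.4 CPM in library 1 (166.6 to 172.4), Pde6d at 6.90 CPM in library 2 (5.52 to 5.74) and Rasip1 at 1.02 CPM in library 1 (0.789 to 0.827). In CTRL, library 4 was low for Mzt1, at 71.2 CPM (79.0 to 80.6), and for Polr1d, at 44.6 CPM (51.3 to 51.9).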

How the results depend on the processing

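With the replicate block, which treats same-numbered libraries as paired, 359 members fell, 83 pairs changed alike and 75 opposite, beside 236, 42 and 42. Leaving out 1 library gave 141 to 245 members that fell, 24 to 43 pairs alike and 21 to 43 opposite. Windows of 5000 bp gave 70 pairs alike, 67 opposite, 52.5% of pairs with both starts on opposite strands and a median CTRL level of 26.5 CPM (27.5 CPM on raw library sizes), and windows of 1000 bp gave 79.7%. Peaks at or above the median score of the list left 461 shared peaks (median width 821 bp, score 13.4), 260 called members (126 up, 134 down), 21 pairs alike and 23 opposite. Windows at starts alone left 526 shared peaks, 27 pairs alike and 19 opposite. These last 2 settings hold fewer peaks by construction, and the cause of the other shifts was not tested. RLE scaling turned the split of 218 up and 236 down into 240 and 210, and DESeq2 into 251 and 230. Of 127 genes followed over 13 alternative fits, 80 were called, 68 of them in every fit, 12 lost a call and 11 others gained one; no called change reversed. The peak list has no replicates, and depth limits genes near 1 CPM such as Moap1.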
